A study of Mus musculus with 16 samples.

Results

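The replication-dependent histone genes encode the linker histone H1 and the core histones H2A, H2B, H3 and H4, the proteins that package newly copied DNA. They lie in dense clusters, carry no or few introns, and end in a stem-loop in place of a poly(A) tail. Their transcription rises with S phase through the coactivator NPAT, a target of cyclin E and CDK2, and their transcripts are processed by the stem-loop binding protein SLBP and the U7 particle. Male germ cells of the mouse fetus stop dividing in mid-gestation, stay in mitotic arrest as gonocytes, and divide again after birth, so these genes pass from cycling to arrested cells and back.

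Members were taken by symbol from the RefSeq gene table of GRCm38.p6 (symbols beginning Hist1h to Hist4h, or H2ac, H2bc, H3c or H4c plus digits, and H1f1 to H1f6). This gave 64 of 49997 annotated genes, of which 63 were protein-coding and 1, H2ac14, was a pseudogene. There were 6 genes of class H1, 18 of H2A, 16 of H2B, 12 of H3 and 12 of H4. Of the 64, 10 lay on chromosome 3 and 54 on chromosome 13, in clusters of 23 and 31 genes. A further 6 genes carry a histone name of the older form only as a synonym and were not members. Among these, H2aw, H2bu2 and H2bu1-ps had a peak within 1 kb in all 6 lists, H4f16 in 5 (all but P0), H2af-ps2 at P0 and P3, and H4bc24 in 0.

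Open chromatin was mapped with ATAC-seq, an assay based on a transposase that cuts accessible DNA, in germ cells isolated from testes of mice carrying the Mvh-Venus transgene, a fluorescent reporter driven from a germ-cell gene. The 16 samples form 8 groups of 2, Morc1 (+/-) or Morc1 (-/-) at E13.5, E16.5, P0 and P3. Every group carries the reporter, no Morc1 (+/+) group is among the samples, and the labels do not say how many animals gave each sample. MORC1 is an ATPase that takes part in transposon silencing in the male germ line.

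The authors deposited 1 peak list per group and none per sample, so a peak was either listed or not listed, with no height and no spread between replicates, and no test between groups was possible. The 2 genotypes' lists were identical at P0 and at P3, and each of these pairs was used once, with no genotype, which left 6 distinct lists of 39559 to 67258 peaks. Read depth is unknown, so a peak that is not listed may be open chromatin below the calling threshold. Intervals below are 95% Wilson intervals and cover counting error over genes or peaks only. Of 8 germ-cell markers, 5 had a peak within 1 kb in the E13.5 Morc1 (+/-) list and 6 in each other list. Ddx4, Dazl, Dnd1, Mael and Sycp3 had one in all 6 (62.5%, near the 62.0% of all protein-coding genes). Pou5f1 had one in the E16.5 lists and at P0, Nanos3 in the E13.5 Morc1 (-/-) list only, and Tdrd1 at P3 only. Sox9 and Amh (Sertoli cells), Star and Insl3 (Leydig cells) and Adgre1 and Csf1r (macrophages) had none in any list. Hba-a1 (blood) had none either. Of 4 Sertoli-cell markers, 2 had a peak in the lists up to P0 and 1 at P3, and of 6 Leydig and stromal markers 3 or 4 had one. Of 3 endothelial markers, 1 to 3 had one, and of 4 macrophage and blood markers 1 in each list. In all 6 lists these were Cyp11a1, Nr2f2 and Pdgfra (Leydig and stromal cells), Dhh (Sertoli cells), Tek (endothelium) and Ptprc (blood). Their part in the results was not tested. Presence of a peak near a marker is not a measure of how many such cells a sample held.

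The promoters on which the findings turn are shown first. Each runs from 250 bases before to 50 bases after the annotated start, 5′ to 3′ on the gene's own strand, from RefSeq (GRCm38.p6). Capitals mark the letters of the CCAAT box, the TATA box (TATAAA), the octamer (ATTTGCAT) and the H1 box (AAACACA). They are marked on either strand and at any position in the window, so a match need not be a working element. An entry was found for 58 of the 64 members. H2bc21, H4c14, H2ac14, H3c7, H2bc4 and H3c1 had no entry. The H1 promoters are shown because H1f1 and H1f3 changed with stage while H1f4 had no peak in any list, and the H3c2 promoter because its peak was listed at every stage but P3. H2ac12 is shown as a promoter shared with a divergent neighbour (H2bc12) and open in all 6 lists, and the inner start of H2bc6 because it was the only member start spanned in 1 genotype and not in the other at the same stage.

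H1f1, chr13:23763418-23763717, plus strand: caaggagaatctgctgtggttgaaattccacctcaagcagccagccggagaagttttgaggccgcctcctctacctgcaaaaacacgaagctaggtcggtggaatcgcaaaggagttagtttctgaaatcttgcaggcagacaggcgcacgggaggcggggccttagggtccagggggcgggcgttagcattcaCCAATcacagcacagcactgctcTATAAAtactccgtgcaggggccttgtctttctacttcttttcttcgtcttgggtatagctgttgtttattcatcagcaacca

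H1f3, chr13:23554782-23555081, plus strand: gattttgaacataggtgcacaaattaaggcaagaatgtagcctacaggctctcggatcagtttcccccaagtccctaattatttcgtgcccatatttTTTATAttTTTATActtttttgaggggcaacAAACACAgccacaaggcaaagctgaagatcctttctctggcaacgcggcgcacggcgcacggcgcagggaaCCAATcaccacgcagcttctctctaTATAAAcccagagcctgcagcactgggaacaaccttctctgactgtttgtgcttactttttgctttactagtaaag

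H1f4, chr13:23622509-23622808, minus strand: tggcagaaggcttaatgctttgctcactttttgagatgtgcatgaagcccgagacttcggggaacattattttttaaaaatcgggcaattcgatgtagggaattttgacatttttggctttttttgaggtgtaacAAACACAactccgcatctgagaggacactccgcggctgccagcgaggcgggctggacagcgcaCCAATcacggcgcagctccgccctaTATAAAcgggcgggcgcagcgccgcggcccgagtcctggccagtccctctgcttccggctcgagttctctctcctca

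H3c2, chr13:23752095-23752394, plus strand: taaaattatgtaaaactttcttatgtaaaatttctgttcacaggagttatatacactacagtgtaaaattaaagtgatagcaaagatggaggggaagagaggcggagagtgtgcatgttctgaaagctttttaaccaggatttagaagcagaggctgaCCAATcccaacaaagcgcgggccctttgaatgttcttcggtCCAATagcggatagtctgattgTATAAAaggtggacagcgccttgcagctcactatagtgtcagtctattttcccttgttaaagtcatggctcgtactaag

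H2ac12, chr13:22035594-22035893, minus strand: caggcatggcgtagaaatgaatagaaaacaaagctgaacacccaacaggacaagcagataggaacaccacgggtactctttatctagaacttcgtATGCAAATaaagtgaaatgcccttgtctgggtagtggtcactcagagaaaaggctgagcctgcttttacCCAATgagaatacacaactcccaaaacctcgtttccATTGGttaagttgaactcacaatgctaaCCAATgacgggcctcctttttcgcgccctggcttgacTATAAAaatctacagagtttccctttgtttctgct

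H2bc6, chr13:23585921-23586220, minus strand: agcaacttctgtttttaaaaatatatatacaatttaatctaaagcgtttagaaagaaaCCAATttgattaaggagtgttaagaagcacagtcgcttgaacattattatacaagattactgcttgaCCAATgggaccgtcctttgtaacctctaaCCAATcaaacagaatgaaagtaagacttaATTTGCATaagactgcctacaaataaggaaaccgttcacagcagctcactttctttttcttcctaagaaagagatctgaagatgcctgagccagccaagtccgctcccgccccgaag

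The same call in all 6 lists was made for 55 of the 64 histone genes (85.9%), near the 83.5% of all protein-coding genes. Of the 64 genes, 30 (46.9%, interval 35.2 to 58.9) had a peak within 1 kb of their bounds in all 6 lists and 25 (39.1%, interval 28.1 to 51.3) in none, leaving 9 that varied. Among 21900 protein-coding genes, 62.0% had such a peak in all 6 lists and 21.5% in none. By list, 35 histone genes (54.7%) had a peak in E13.5 Morc1 (+/-) cells, 36 (56.2%) in E13.5 Morc1 (-/-) cells, 35 (54.7%) in E16.5 Morc1 (+/-) cells and 34 (53.1%) in E16.5 Morc1 (-/-) cells. The count was 34 (53.1%) at P0 and 31 (48.4%) at P3. Over all protein-coding genes the shares were 68.9, 69.0, 70.8, 71.7, 74.3 and 68.9% in the same order of lists. The histone share was below the genome-wide share in every list, and the upper bound of its interval (60.4 to 67.7%) was below it too. That interval treats the genes as independent, though neighbours can share a peak, so it may be too narrow. Set against all 49997 annotated genes in place of protein-coding ones, the direction turned: 42.2 to 50.1% of those had a peak, below the histone share in each list. That share lay inside the histone interval in the E16.5, P0 and P3 lists, and below it in the E13.5 lists only. The map of peaks over the 64 genes shows that members without a peak lay in blocks.

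**Figure D1:**
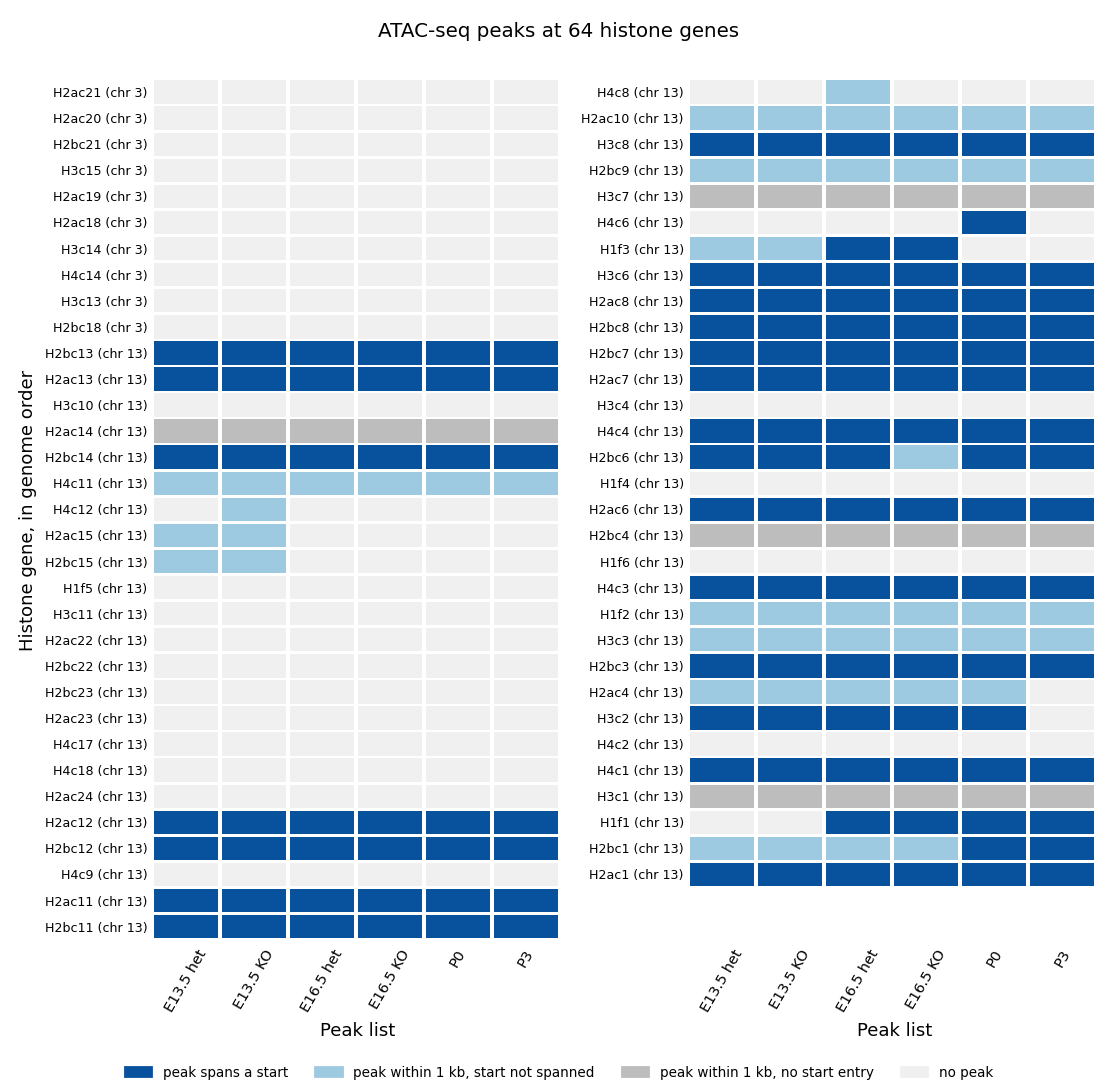
Peak presence at each of the 64 histone genes (rows, in genome order) in the 6 distinct lists (columns). Dark blue marks a peak that spans an annotated start, light blue a peak within 1 kb that does not, dark grey a peak at a gene with no start entry, and pale grey no peak. The 10 genes of chromosome 3 and the 9 genes from H1f5 to H2ac24 are pale in all 6 lists.

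Of the 64 genes, 59 are shorter than 1 kb, and a longer gene offers a peak more room, so the start sites were examined as well. A peak spanned an annotated start of 21, 21, 23, 22, 24 and 22 of the 58 members with a start entry in the E13.5 Morc1 (+/-), E13.5 Morc1 (-/-), E16.5 Morc1 (+/-), E16.5 Morc1 (-/-), P0 and P3 lists, or 36.2, 36.2, 39.7, 37.9, 41.4 and 37.9%. For 17492 protein-coding genes with an entry the shares were 52.3, 52.4, 52.0, 52.7, 53.2 and 51.5%. In all 6 lists the start of 19 members (32.8%, interval 22.1 to 45.6) was spanned, against 43.5% of protein-coding genes, which lies inside that interval. In no list was that of 33 members (56.9%, interval 44.1 to 68.8) spanned, against 40.0%, which lies below it. The histone share was lower in each list, but in E16.5 Morc1 (+/-) cells (interval 28.1 to 52.5%) and at P0 (29.6 to 54.2%) the genome-wide share lay inside its interval.

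**Figure D2:**
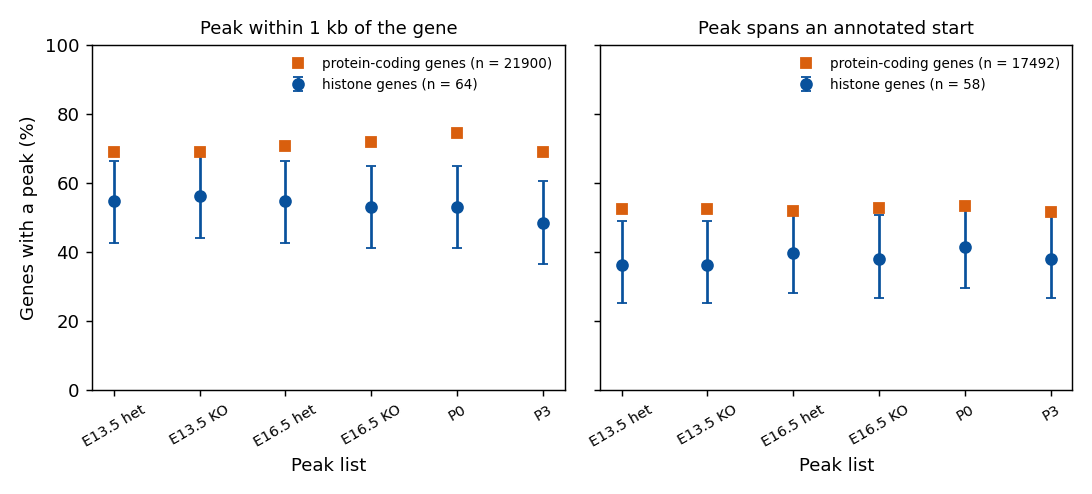
Share of genes with a peak (vertical axis, %) in each list (horizontal axis; het is Morc1 (+/-) and KO is Morc1 (-/-)), within 1 kb of the gene on the left and spanning a start on the right. Circles are the histone genes with 95% Wilson intervals, squares all protein-coding genes; the histone genes lie below the squares in all 6 lists, at 48.4 to 56.2% on the left.

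The 2 blocks without peaks held 19 of the 25 members that had none. The first was the whole chromosome 3 cluster of 10 genes, which holds H2ac18, H2ac19, H2ac20, H2ac21, H2bc18, H2bc21, H3c13, H3c14, H3c15 and H4c14 (chr3:96219885-96270192, 50.3 kb). No peak of any list lay in it or within 1 kb of it. The nearest peaks were 47.1 to 47.2 kb before and 42.0 to 42.1 kb after the cluster in the E13.5, E16.5 and P3 lists, and 33.9 and 30.5 kb away at P0. The 115 kb free of peaks in all 6 lists also held Bola1, Fcgr1 and the long non-coding RNA Gm20627. The second block ran from H1f5 to H2ac24 on chromosome 13 (chr13:21779832-21833475, 53.6 kb) and held the 9 genes H1f5, H3c11, H2ac22, H2bc22, H2bc23, H2ac23, H4c17, H4c18 and H2ac24, within 102 kb free of peaks in all 6 lists.

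Near-identical copies were frequent in both blocks. Of the 17 member promoters there, 9 shared at least 67.7% of their 50-base words with another promoter of the RefSeq table, and 8 shared none. The promoters of H2bc23 and the non-member H4bc24 were the extreme case, with 100% of the words of H2bc23 found elsewhere. Outside the blocks only H4c11 and H4c12 shared any, at 11.6% with each other. Reads that fall wholly within shared sequence fit more than 1 place, and how the submitters treated such reads is not given in the sources used here. Mappability was not computed. The 9 genes with shared words are therefore uncertain, and the part of sequence copies in the absence of peaks was not tested. H1f5, H3c11, H2ac22, H2bc22, H2ac20, H2ac21, H2bc18 and H3c13, whose promoters shared no word, had no peak either. Words were sought among promoter windows only, so whether reads fit a single place at these genes is not known. H2bc21 and H4c14 had no window to search.

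Without these 19 genes, 45 members remained, and 35, 36, 35, 34, 34 and 31 of them had a peak within 1 kb in the E13.5 Morc1 (+/-), E13.5 Morc1 (-/-), E16.5 Morc1 (+/-), E16.5 Morc1 (-/-), P0 and P3 lists. These are shares of 77.8, 80.0, 77.8, 75.6, 75.6 and 68.9%, with intervals spanning from 54.3 to 89.1%. The genome-wide share lay inside the interval in each list. The blocks were picked after seeing that they hold no peak, so leaving them out raises the share by construction. The 6 members without a peak outside them were H3c10, H4c9, H3c4, H1f4, H1f6 and H4c2.

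The classes were then described apart, and the differences between them were not tested. A peak spanned the start in all 6 lists at 7 of 17 H2A, 7 of 14 H2B, 2 of 10 H3, 3 of 11 H4 and 0 of 6 H1 genes with a start entry. The share of H2A (41.2%) lay just below, and that of H2B above, the 43.5% of all protein-coding genes, and the shares of H3 (20.0%) and H4 (27.3%) lay further below. By the 1 kb rule, 9 of 18 H2A, 11 of 16 H2B, 5 of 12 H3, 4 of 12 H4 and 1 of 6 H1 genes had a peak in all 6 lists, against 62.0% of all protein-coding genes. The 19 genes whose start was spanned in all 6 lists were H2ac1, H2ac6, H2ac7, H2ac8, H2ac11, H2ac12 and H2ac13, H2bc3, H2bc7, H2bc8, H2bc11, H2bc12, H2bc13 and H2bc14, H3c6 and H3c8, and H4c1, H4c3 and H4c4. The H2A and H2B genes are not independent, because many are transcribed head to head from 1 shared promoter.

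There were 9 such divergent pairs among the members with a start entry, with starts 164 to 281 bp apart (median 180.0 bp). Members without an entry, such as H2bc4 beside H2ac6, could not be paired, so further pairs may exist. In 5 pairs a single peak of 501 bp covered both starts in all 6 lists: H2bc13 with H2ac13, H2ac12 with H2bc12, H2ac11 with H2bc11, H2ac8 with H2bc8, and H2bc7 with H2ac7. In the H2ac12 promoter printed above, the peak ran from 22035472 to 22035972 in E13.5 Morc1 (+/-) cells, 22035454 to 22035954 in E13.5 Morc1 (-/-) cells, 22035490 to 22035990 in E16.5 Morc1 (+/-) cells and 22035435 to 22035935 in E16.5 Morc1 (-/-) cells. At P0 it ran from 22035508 to 22036008 and at P3 from 22035516 to 22036016. Its midpoint was 42 to 123 bp upstream of the H2ac12 start. Pairs without a covering peak were H2ac15 with H2bc15, and H2ac22 with H2bc22 and H2bc23 with H2ac23 inside the peak-free block.

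The ninth pair is that of the testis variants H2ac1 (TH2A) and H2bc1 (TH2B), which replace much of the somatic H2A and H2B in meiotic male germ cells. A peak lay between them in all 6 lists, E13.5 included. It spanned the H2ac1 start in every list, with a midpoint between 84 bp upstream and 1 bp downstream. Relative to H2bc1 the midpoint was 282, 273, 269 and 255 bp upstream in the 4 fetal lists, 197 at P0 and 228 at P3, so that with peaks of 501 bp the H2bc1 start was spanned at P0 and P3 only. The shift is 27 bp between the nearest fetal and postnatal midpoints, and the peak itself was listed throughout. H1f6 (H1t), the testis linker histone, had no peak within 1 kb in any list.

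At the 19 starts spanned in all 6 lists the peaks sat just upstream. The median midpoint was 107, 97.0, 84.0, 99.0, 106 and 91.0 bp before the start in the E13.5 Morc1 (+/-), E13.5 Morc1 (-/-), E16.5 Morc1 (+/-), E16.5 Morc1 (-/-), P0 and P3 lists. For a single gene the 6 midpoints lay within 26 bp (H4c4) to 142 bp (H4c3) of one another, with a median spread of 80.0 bp. H4c4 was the exception in place, with midpoints 1 to 27 bp after the start. H4c11 differed from these genes: in all 6 lists it had a peak 681 to 838 bp upstream and another 433 to 503 bp downstream, and neither spanned the start. H1f2 had a single peak in all 6 lists, 858 to 988 bp downstream of its start and centred beyond the end of the gene.

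**Figure D3:**
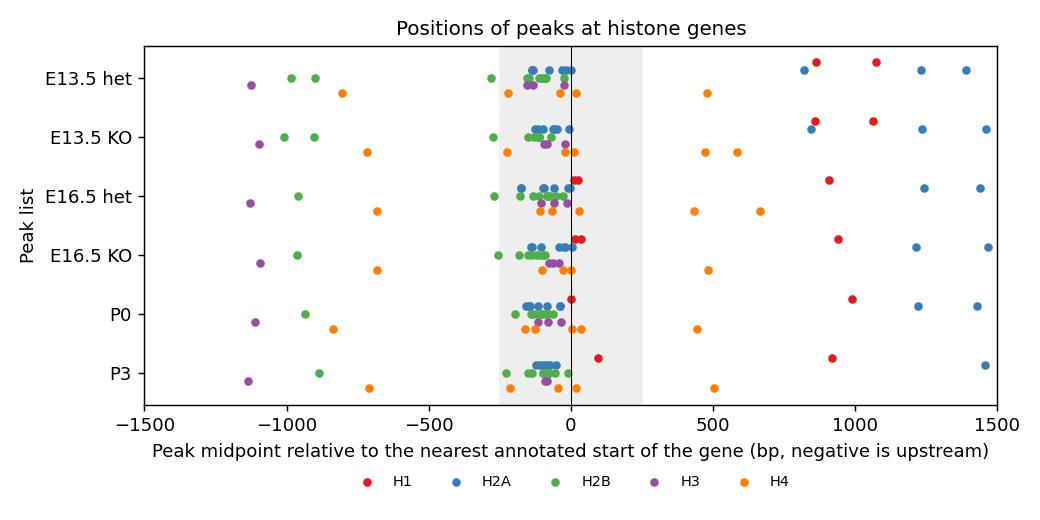
Midpoints of peaks (horizontal axis, bp from the nearest annotated start of each gene, negative upstream) in each list (vertical axis), coloured by histone class; each point is a gene and a peak within 1500 bp, and the grey band marks where a 501 bp peak spans the start. Most points of H2A, H2B and H3 lie in the band to the left of 0, and H1 points enter the band at E16.5.

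Some genes met the 1 kb rule only through a neighbour's peak. H2ac10 was reached by the peak at the H3c8 start, H3c3 by that at the H2bc3 start, and H2ac4 by that at the H3c2 start. In the lists, 20 to 24 peaks lay within 1 kb of a member, and 12 to 14 of them reached 2 members. When each peak was given to the nearest member alone, 19 to 22 genes had a peak, against 31 to 36.

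At 2 of the 6 H1 genes the start was spanned at some stages and not at others. H1 linker histones bind the DNA between nucleosomes, and H1f1 to H1f5 are the somatic subtypes. H1f1 had no peak within 1 kb in either E13.5 list. At E16.5 a peak spanned its start in both genotypes, at 23763429 to 23763929 in Morc1 (+/-) and 23763432 to 23763932 in Morc1 (-/-) cells. The peak was listed again at P0 (23763419 to 23763919) and at P3 (23763512 to 23764012). H1f1 thus had a peak in the 4 lists from E16.5 onwards and in 0 of 2 lists before.

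H1f3 followed a shorter course. At E13.5 its only peak lay downstream of the gene, with a midpoint 1074 bp (Morc1 (+/-)) and 1063 bp (Morc1 (-/-)) after the start. At E16.5 that peak was not listed and another spanned the start, at 23554808 to 23555308 in Morc1 (+/-) and 23554819 to 23555319 in Morc1 (-/-) cells. At P0 and P3 no peak lay within 1 kb of H1f3. The start of H1f3 was therefore spanned at E16.5 alone, and in both genotypes.

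The other H1 genes showed no peak at their starts: H1f2 had the downstream peak only, and H1f4, H1f5 and H1f6 had none. H1f1 and H1f3 were the only members, 2 of 58 (3.45%, interval 0.951 to 11.7), whose start was spanned in both E16.5 lists and in neither E13.5 list. Genome-wide, 1.91% of protein-coding genes with a start entry did so, inside that interval, and 1.64% went the opposite way, as 0 of 58 members did.

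By the 1 kb rule, H1f1 was the only member of 64 that gained a peak from E13.5 to E16.5 in both genotypes, against 3.07% of all protein-coding genes. H2ac15 and H2bc15 were the only members that lost one, against 1.33%. They shared a peak at 21752841 to 21753341 in Morc1 (+/-) and 21752816 to 21753316 in Morc1 (-/-) cells at E13.5. It lay beyond the end of H2ac15, 985 and 1010 bp upstream of the H2bc15 start, and was in none of the later lists. With windows of 2000 and 0 bp the gains became 0 and 2, and with 500 and 0 bp the losses became 1 and 0, so these counts depend on the window.

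From E16.5 to P0, H4c6 gained a peak and H1f3 lost its own. The H4c6 peak (23551381 to 23551881) spanned the start and was listed at P0 only. Genome-wide, 3.29% of protein-coding genes gained and 1.11% lost a peak at this step by the same rule, against 1 of 64 members (1.56%) each way. With a window of 0 bp these counts were 2 and 2.

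From P0 to P3, when germ cells are near mitotic re-entry, 0 members gained a peak (interval up to 5.66%) and 3 lost one (4.69%, interval 1.61 to 12.9). Among all protein-coding genes 1.01% gained and 6.33% lost a peak, and the P3 list was shorter than the P0 list, with 44760 against 67258 peaks. With a window of 0 bp, 1 member gained a peak. The 3 members were H4c6, H3c2 and H2ac4, the last pair through a single peak. That peak spanned the H3c2 start in 5 lists: 23752070 to 23752570 and 23752074 to 23752574 at E13.5, 23752081 to 23752581 and 23752053 to 23752553 at E16.5 (Morc1 (+/-) first in each case), and 23752059 to 23752559 at P0. H3c2 encodes a core histone H3, and its start was spanned in the 3 stages up to birth and not at P3.

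The genotypes differed at few members. At E13.5, 1 member, H4c12, had a peak in Morc1 (-/-) cells only (1.56%, against 1.99% of protein-coding genes) and 0 had one in Morc1 (+/-) cells only (against 1.83%). The H4c12 peak (21749718 to 21750218) had its midpoint 585 bp after the start, beyond the end of the gene, and was in no other list. At E16.5, 1 member, H4c8, had a peak in Morc1 (+/-) cells only (against 1.91%), at 23531459 to 23531959, 665 bp after the start and beyond the end of the gene, and likewise in no other list. No member had one in Morc1 (-/-) cells only (0 of 64, against 2.82%). These counts lie near the genome-wide shares, and each rests on 1 peak in 1 list.

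At H2bc6 the genotypes differed in place. This H2B gene is annotated over 37 kb with an outer start and an inner start. A peak covered the inner start in 5 lists, at 23585743 to 23586243 and 23585837 to 23586337 at E13.5, 23585749 to 23586249 in E16.5 Morc1 (+/-) cells, 23585844 to 23586344 at P0 and 23585729 to 23586229 at P3. It was not in the E16.5 Morc1 (-/-) list, which held 2 other peaks inside the gene, at 23597864 to 23598364 and 23611480 to 23611980. The first of these had counterparts in the Morc1 (+/-) lists of E13.5 and E16.5 and at P0. H2bc6 was the only member whose start was spanned in 1 genotype and not in the other at either stage.

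Member peaks were compared between lists, beside all peaks and beside the peaks that span a start of any protein-coding gene. At E13.5, 22 of 23 member peaks of each genotype overlapped a peak of the other by at least 1 bp (95.7%, interval 79.0 to 99.2). At E16.5 these were 22 of 24 in Morc1 (+/-) (91.7%) and 22 of 23 in Morc1 (-/-) cells (95.7%). The whole lists gave 78.7 and 80.4% for the E13.5 genotypes and 81.4 and 76.5% for those of E16.5, and start-spanning peaks recurred in 97.6, 97.4, 97.1 and 96.0%. From E13.5 to E16.5, 21 of 23 member peaks were found again in Morc1 (+/-) cells (91.3%, interval 73.2 to 97.6) and 19 of 23 in Morc1 (-/-) cells (82.6%, interval 62.9 to 93.0). For start peaks of all genes the shares were 94.3 and 95.2%, and over the whole lists 56.7 and 60.6%. Of the E16.5 peaks, 22 of 24 and 21 of 23 were found at P0 (91.7 and 91.3%), against 96.3% of start peaks of either list. Of the P0 peaks, 20 of 23 were found at P3 (87.0%), against 93.2% of start peaks, and all 20 member peaks of P3 overlapped one of P0, against 97.4%. In the opposite direction, 21 of 24 (87.5%) and 19 of 23 (82.6%) of the E16.5 member peaks were found at E13.5, against 93.8 and 93.7% of start peaks. The share of start peaks lay above the interval of the members between E13.5 and E16.5 in Morc1 (-/-) cells, in both directions, and inside it in the other comparisons given here. These intervals rest on 20 to 24 peaks. The 2 sets are unlike, because member peaks include peaks within 1 kb that span no start. Of the E13.5 Morc1 (-/-) member peaks not found at E16.5, those near H4c12, H2ac15 and H1f3 spanned no member start. The one at the inner start of H2bc6 did.

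The promoters of the members were then compared by sequence. A CCAAT box was found in 51 of 59 member promoter windows (86.4%), 1 gene having 2 starts, against 37.4% of 32851 windows of the RefSeq table. It was in every H1, H2A, H2B and H3 window and in 3 of 11 H4 windows. TATAAA was in 34 of 59 (57.6%), against 13.6%. The H4 windows held GGTCC, the core of the H4 subtype element, in 10 of 11 cases (90.9%), against 45.5% of all windows.

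The octamer ATTTGCAT, which binds POU2F1 (OCT1) and is known from H2B promoters, was in 7 of 15 H2B windows, 6 of 17 H2A windows and 0 windows of the other classes, against 1.74% of all windows. Of the 2 E2F forms searched, TTTCGCGC was in 5 H2A and 4 H2B windows (9 of 59, 15.3%, against 0.323%) and TTTGGCGC in 0 of 59 (against 0.514%). Windows of a divergent pair overlap, so 1 copy of a motif can count for both genes. Each motif was searched by these exact letters on both strands, and matches of different motifs may share bases.

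**Figure D4:**
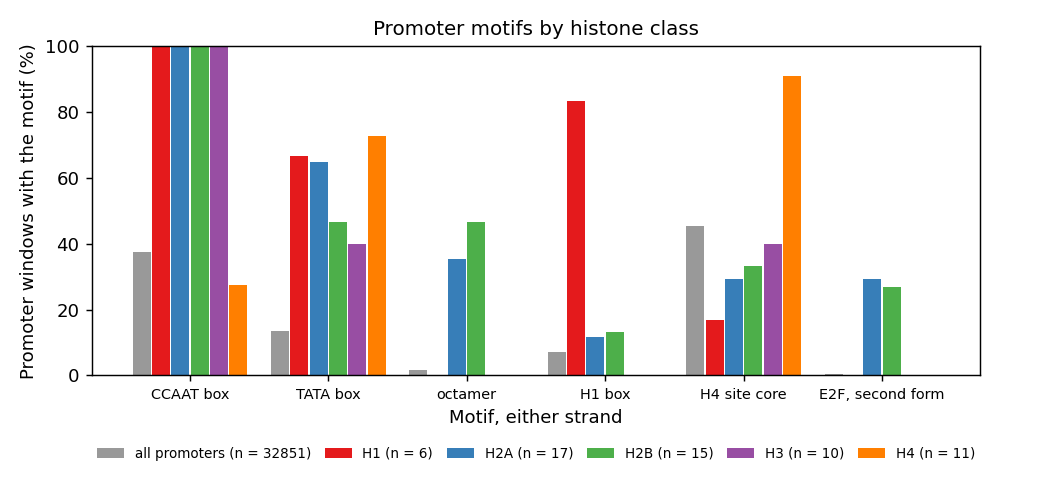
Share of promoter windows (vertical axis, %) that hold each motif on either strand (horizontal axis; TTTGGCGC, found in 0 member windows, is not drawn, and the E2F bars are TTTCGCGC), for all RefSeq windows in grey and for the 5 histone classes in colour. The CCAAT box reaches 100% in 4 classes, the octamer appears in H2A and H2B alone among the classes, and the H4 site core reaches 90.9% in H4.

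Read against accessibility, the octamer was in 8 of 19 windows whose start was spanned in all 6 lists (42.1%) and in 1 of 16 windows outside the 2 blocks whose start was spanned in none (6.25%). The CCAAT box was in 19 of 19 and in 11 of 16 (68.8%). The windows without it were all of H4 genes (H4c2, H4c8, H4c9, H4c11 and H4c12), so this contrast cannot be told apart from class. TATAAA was in 11 of 19 (57.9%) and 9 of 16 (56.2%). The always-spanned windows are mostly of H2A and H2B genes, the classes in which the octamer occurs, so class and motif cannot be told apart in these counts. Median GC content was 44.3% in the 19 windows, 45.3% over all 59 and 52.7% over the RefSeq table.

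The H1 box AAACACA was in 5 of 6 H1 windows, against 7.18% of all windows. H1f1 was the exception. In the printed promoters the box lies 122 bases before the start of H1f3 and 115 before that of H1f4, and in the H1f1 window these letters do not occur. All 3 have a single CCAAT box, 51 bases (H1f3), 52 bases (H1f4) and 56 bases (H1f1) before the start, followed by TATAAA. The match of letters describes these windows and is no measure of binding.

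The genes listed around histone transcription and processing had peaks throughout. The list also holds cell-cycle genes, such as Rb1, and carriers of histone proteins, such as Asf1a, Asf1b and Nasp. All 34 of the listed genes had a peak within 1 kb in all 6 lists, against 62.0% of all protein-coding genes. Of the 27 with a start entry, 20 (74.1%, against 43.5%) had their start spanned in all 6, among them Npat, the S-phase coactivator, Casp8ap2 (FLASH), which works with it at the histone locus body, Slbp, Lsm10 and Lsm11 of the U7 particle, and Ccne1 and Cdk2. The 4 whose start was spanned in some lists were E2f2 (E16.5 Morc1 (+/-) only), Pou2f1 (all but E13.5 Morc1 (-/-)), Asf1a (all but P0) and Asf1b (all but the 2 E13.5 lists). E2f1, Yy1 and Nasp were spanned in none, with a peak within 1 kb in each list.

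Histone genes listed as replication-independent, a class whose products are in general not tied to S phase, were examined in the same way. Of 17 listed, 15 matched the gene table, and 10 of these (66.7%) had a peak within 1 kb in all 6 lists, near the 62.0% of all protein-coding genes. Those 10 included H3f3a and H3f3b (H3.3), H2az1 and H2az2 (H2A.Z), Cenpa, H1f0 and H1f10. H1f7, a spermatid linker histone, had a peak at P0 and P3 only, and H1f8, H2bl1, H2al2a and H2ax had none. H2bu2, also among the 10, carries a histone name of the older form, so its place in this list is uncertain. Of 9 non-histone protein-coding genes between the outermost members of the clusters, 4 (44.4%) had a peak in all 6 lists (Zfp184, Pom121l2, Prss16 and Hfe) and 3 in none (Slc17a2, Slc17a3 and Slc17a4).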

How the data were processed

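ATAC-seq peaks were compared at 64 histone genes in 6 distinct lists. The deposited lists give chromosome, start and end per peak and no other unit. Per the submitters' processing notes, the build was mm10 (GRCm38), and bcl2fastq 2.20, cutadapt 1.18, Bowtie2 2.3.4.1, deepTools 3.5.0 and HOMER 4.10 were used. The role of each tool, the peak threshold and any pooling of samples are not given in the sources used here. All but 0 to 3 peaks per list are 501 bp wide.

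A gene had a peak when a peak overlapped its bounds extended by 1000 bp, and a start was spanned when a peak contained it. Genes, starts and sequences came from RefSeq (GRCm38.p6), with 1-based coordinates. Peaks of 2 lists were shared at an overlap of 1 bp or more. Wilson intervals and figures used Python 3.11.15 and matplotlib 3.10.9. The peak search was tested on simulated data. Members and lists were chosen with earlier results of these data known. Patterns of 10 or fewer members, every member that differed between genotypes, the testis members and 5 pathway genes were named by rule, with 4 genes a class from larger patterns. Further genes were named after their values were seen. The spanned starts, the blocks without peaks, the 50-base words and the tRNA genes were also chosen after seeing the data. Alternatives were windows of 0, 500 and 2000 bp, start sites, nearest-gene assignment, older synonyms, no pseudogene, and stricter or looser sharing.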

Additional observations from a re-analysis of the deposited data

How the results depend on the processing

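No paired analysis was possible because the peaks carry no replicate of their own (1 list for 2 samples), and leaving out a replicate was not possible either. A stricter threshold was not run, as the peaks carry no score. Of 120 recomputed values, 96 stayed within 1.5 times the reported count or inside its interval and 24 moved, including all 6 genome-wide shares. Some of the 96 could not move. Leaving out the peak-free blocks changes no count of genes with a peak. Leaving out the 1 pseudogene or adding the 6 synonym genes cannot change one by 1.5 times. Each of these settings gave 6 values, all among the 96. All 36 recomputed shares of recurring peaks and all 12 genotype counts stayed. In list order (E13.5 Morc1 (+/-), E13.5 Morc1 (-/-), E16.5 Morc1 (+/-), E16.5 Morc1 (-/-), P0, P3), assignment to the nearest member gave 21, 22, 22, 21, 21 and 19 genes with a peak, by construction fewer. Requiring a spanned start gave 21, 21, 23 and 22 in the first 4 lists, and a distance of 500 bp from a start gave 23 in the first. Counts of genes that changed with stage are small, and so moved easily. Gains from E13.5 to E16.5 became 2 with a window of 0 bp and 0 with 2000 bp, and losses became 1 with 500 bp and 0 with 0 bp. With 0 bp, gains from E16.5 to P0 became 2, losses 2, and gains from P0 to P3 became 1. Taken over all annotated genes in place of protein-coding ones, the genome-wide shares were 42.4, 42.2, 45.0, 46.5, 50.1 and 43.9%, below the histone shares. In the E16.5, P0 and P3 lists they lay inside the interval of the histone share. The unknown depth limits every statement on a peak that was not listed.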

Other observations

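The gaps between histone genes of chromosome 13 hold transfer RNA genes, which RNA polymerase III transcribes. Between the outermost members of the clusters lay 31 of them, and 15, 17, 15, 15, 18 and 19 had a peak within 1 kb in the E13.5 Morc1 (+/-), E13.5 Morc1 (-/-), E16.5 Morc1 (+/-), E16.5 Morc1 (-/-), P0 and P3 lists. These are shares of 48.4, 54.8, 48.4, 48.4, 58.1 and 61.3%. Over all 430 annotated transfer RNA genes the shares were 36.7, 39.8, 31.9, 33.3, 34.4 and 41.2%. A peak was listed in all 6 lists at 12 of the 31 and in none at 11. Neighbouring genes can share a peak, and the difference between the 2 sets was not tested.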
